A study of Drosophila melanogaster with 8 samples.

Results

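The autophagy genes described here are 10 genes of the fly chosen by name, Atg1, Atg101, Atg9, Atg18a, Atg5, Atg7, Atg16, Atg8a, Atg8b and ref(2)P. All 10 were found by gene name in both deposited tables, among 23983 entries for adult muscle and 17898 for adult whole flies. The 8 mRNA libraries came from Drosophila melanogaster muscle of anw mutants, muscle of wildtype flies, whole anw mutant flies and whole wildtype flies, with 2 libraries in each of these 4 groups. The design text calls the mutants anw knockouts, and the series' title presents anw's class as regulators of alternative splicing. The labels state no allele, genetic background, age or sex, nor which muscles were taken or how many flies went into a library. The tables hold RNA per gene, so splice forms were not measured.

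Macroautophagy encloses cytoplasm in a double membrane, the autophagosome, which then fuses with the lysosome. The kinase Atg1 and its partners start the process, Atg9 vesicles and Atg18a at the growing membrane follow, and a ubiquitin-like conjugation system with Atg5, Atg7, Atg12 and Atg16 attaches Atg8 to lipid. Atg8 on the membrane recruits cargo through receptors such as ref(2)P, the fly p62, which is itself degraded with its cargo. In muscle, autophagy is known for the turnover of mitochondria and contractile proteins. RNA levels of these genes do not measure autophagic flux.

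Between 18580751 and 22210197 reads per library were assigned to genes. The mutant muscle libraries were less alike than the wildtype ones, with a Pearson correlation of log2(FPKM + 1) across entries of 0.878 between the mutants and 0.973 between the wildtypes, while whole-fly pairs reached 0.99 and 0.991. FPKM is the number of reads per kilobase of a gene, scaled to the library total. All 17 markers of flight and body muscle were above 1 FPKM in every muscle library, as they were in every whole-fly library. Side by side and without a test, these markers summed to 14359 to 18826 FPKM in muscle and 3734 to 9130 FPKM in whole flies. The muscle libraries also held RNA of other tissues, with 9046 to 16586 FPKM summed over 12 digestive enzyme markers of the gut. Over 10 fat body markers they held 8440 to 26627 FPKM. Over 9 neuron markers they held 98.0 to 139 FPKM, against 45.4 to 67.2 FPKM in whole flies. The whole-fly genotypes differed in such sums. Over the same gut markers, whole mutant flies had 11289 and 11272 FPKM and whole wildtype flies 21203 and 19918 FPKM. Summed over the 17 muscle markers, whole mutant flies had 9130 and 8331 FPKM and whole wildtype flies 4310 and 3734 FPKM. The medians of these 17 were 291 and 301 FPKM in mutants and 160 and 141 FPKM in wildtypes. The groups overlapped for sls and bt, and both mutants lay above both wildtypes for the rest. Summed over 16 ovary and eggshell markers, whole mutant flies had 12996 and 9957 FPKM and whole wildtype flies 5783 and 5514 FPKM. Summed over the 10 fat body markers, whole mutant flies had 10133 and 9324 FPKM and whole wildtype flies 7444 and 7094 FPKM. The medians of these 10 overlapped, at 72.0 and 87.0 FPKM in mutants and 101 and 73.6 FPKM in wildtypes. Single fat body markers moved in both directions, with Fbp1 at 4.80 and Adh at -2.07 (log2, mutant minus wildtype). In bulk tissue, fewer cells of a type and less RNA per cell cannot be told apart. No entry of either table carries the name anw, so the genotype labels were not checked against RNA of the targeted gene.

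The members spanned a wide range of levels. In every group Atg8a and ref(2)P were at the top, at percentiles 96.0 to 98.1 of the protein-coding genes, and the other 8 stood at percentiles 43.9 to 85.7. In wildtype muscle Atg8a averaged 292 ± 1.08 FPKM and ref(2)P 110 ± 3.35 FPKM (SD, n = 2). Atg18a, Atg9, Atg101 and Atg1 followed in wildtype muscle at 18.6 ± 0.15, 18.5 ± 1.60, 18.1 ± 2.24 and 16.3 ± 0.28 FPKM. The ranges of Atg18a and Atg101 overlapped that of Atg9 in wildtype muscle, so the order of these 3 neighbours is not beyond their spread. Atg5, Atg16, Atg7 and Atg8b closed the wildtype muscle order at 6.24 ± 0.33, 5.94 ± 0.53, 2.48 ± 0.47 and 2.31 ± 1.79 FPKM, and here too the neighbours Atg5 and Atg16, and Atg7 and Atg8b, overlapped. In mutant muscle Atg18a and Atg9 again overlapped, Atg1 lay below Atg101 without overlap, as in wildtype muscle, and the range of Atg8b spanned those of Atg1, Atg16, Atg5 and Atg7. In whole mutant flies Atg1 and Atg8b overlapped, as did Atg101 and Atg16. In whole wildtype flies ref(2)P and Atg8a overlapped, as did Atg8b, Atg101 and Atg18a, and Atg9 and Atg1. Reads behind a value were fewest for Atg7, at 100 to 380 per library, and for Atg8b, at 0 to 307, and most for Atg8a, at 6338 to 11390.

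**Figure D1:**
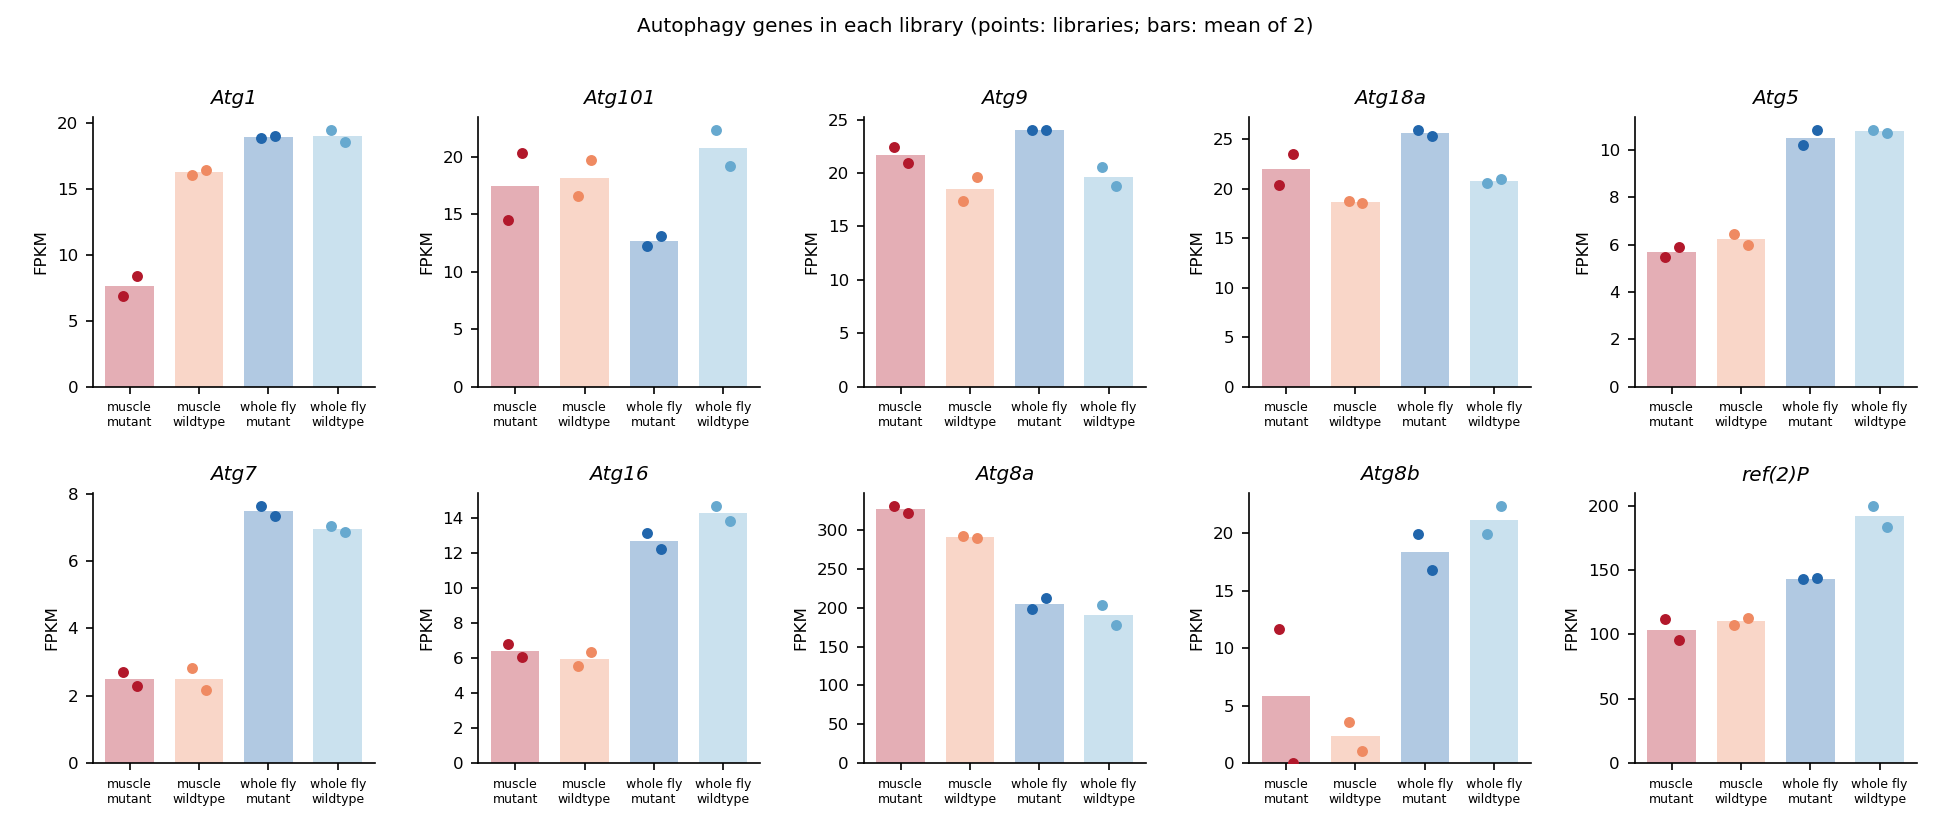
FPKM of the 10 autophagy genes (vertical axes, a separate scale for each gene) in the 4 groups, mutant left of wildtype within each tissue. Points are libraries and bars are means of 2. Atg1 is lowest in mutant muscle, Atg101 and ref(2)P are lower in whole mutant flies than in whole wildtype flies, and Atg8b differs most between libraries of the same group.

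In FPKM, Atg8a was the only member higher in muscle than in whole flies in both genotypes. Its mean in muscle was 1.59 times that in whole flies for mutants and 1.52 times for wildtypes, with no overlap between the tissues. The tables were scaled separately, so these ratios are levels side by side without a test. Neuron markers also summed higher in each muscle library than in any whole-fly library, and their part in these ratios was not tested. Atg7, Atg5, Atg16, ref(2)P, Atg1, Atg18a and Atg8b had lower FPKM in muscle than in whole flies without overlap in both genotypes. How many of all genes share this pattern was not counted. By percentile of the protein-coding genes, Atg5, Atg9, Atg18a and Atg101, like Atg8a, stood higher in muscle in both genotypes. Atg5 stood at 60.7 and 63.4 in mutant and wildtype muscle, against 57.6 and 58.6 in whole flies. Atg7 and Atg8b stood lower in muscle in both genotypes, and Atg1, Atg16 and ref(2)P changed direction between genotypes. The muscle to whole-fly ratio was 0.333 in mutants and 0.357 in wildtypes for Atg7, 0.542 in mutants and 0.579 in wildtypes for Atg5, 0.506 in mutants and 0.417 in wildtypes for Atg16, and 0.722 in mutants and 0.574 in wildtypes for ref(2)P. Ratios for Atg9 and Atg18a lay between 0.856 and 0.942. Ratios differed more between genotypes for the remaining 3 members, at 0.403 in mutants and 0.854 in wildtypes for Atg1, 1.37 in mutants and 0.873 in wildtypes for Atg101, and 0.316 in mutants and 0.109 in wildtypes for Atg8b.

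The first comparison set mutant muscle against wildtype muscle. None of the 10 members passed the test, against a background of 0% of 10079 entries called. The test was limma on log2(FPKM + 1) with Benjamini-Hochberg adjustment over all entries tested, at 0.05, and limma-voom on the reads recovered from the tables also called 0 members. At an unadjusted limma p under 0.05 there was 1 member, Atg1, against 14% of all entries. Groups did not overlap for 5 members, against 48.9% of all entries, a share near this background. Of these, 3 had both mutants above and 2 had both below, against 23.6% and 25.3% of all entries. The median difference over the members was 0.05 (log2), against 0.02 over all entries tested. Because the labels do not tell whether repeats are separate flies, every p-value here reflects the spread among these libraries alone, and that spread may be technical.

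In whole flies, 2 of the 10 members, Atg101 and ref(2)P, were lower in mutants and 0 were higher. The background was 20.8% of 11419 entries called, and 10.8% called lower, so 2 of 10 is near the background share. At an unadjusted limma p under 0.05 there were 4 members, against 36.4% of entries. The groups did not overlap for 6 members, 3 with both mutants above and 3 with both below, against 66% of all entries, 34.5% above and 31.5% below. The median difference over the members was -0.02 (log2), against 0.02 over all entries. Both calls depended on single libraries, as given with each gene.

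**Figure D2:**
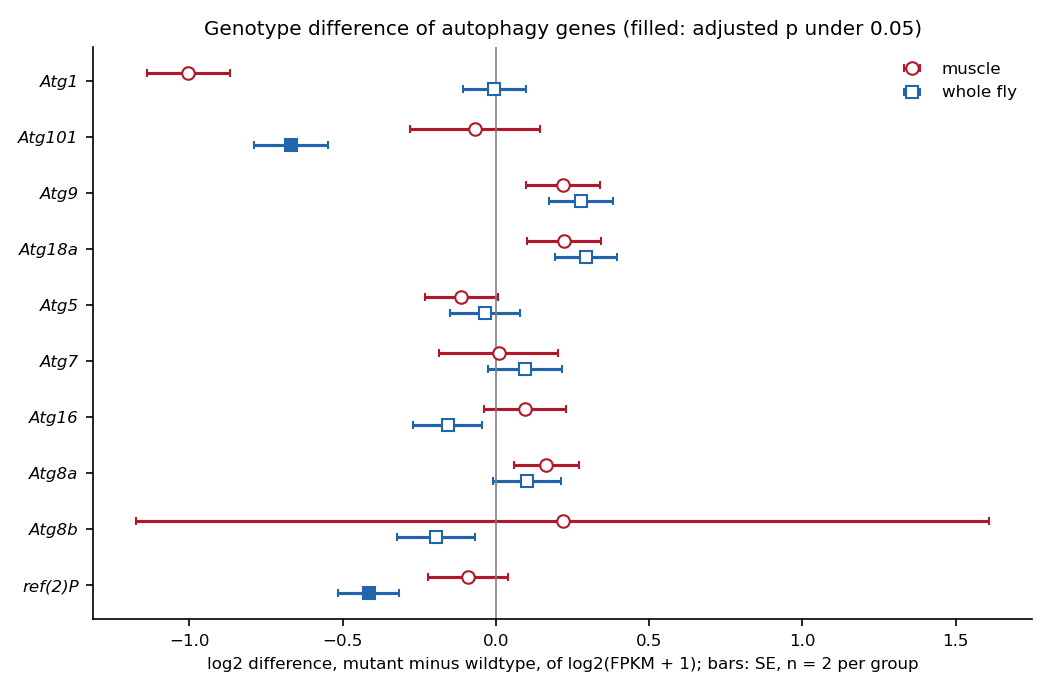
Difference between mutant and wildtype in log2(FPKM + 1) for each member (horizontal axis), with its standard error as a bar, in muscle (circles) and whole flies (squares), n = 2 per group. Filled symbols mark the 2 members with a limma adjusted p under 0.05, Atg101 and ref(2)P in whole flies. Atg1 stands apart in muscle at -1.0, and the bar of Atg8b in muscle is the widest, at 1.39.

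Initiation is the step of Atg1, the serine/threonine kinase at the head of the pathway, and of Atg101, which binds Atg13 in the same complex. Atg1 (FBgn0260945, 3L, 12784429 to 12805116, minus strand, release 6 coordinates, 2 annotated transcripts) had 6.91 and 8.38 FPKM in mutant muscle, from 580 and 635 reads, against 16.1 and 16.5 FPKM in wildtype muscle, from 1425 and 1404 reads. Both mutants lay below both wildtypes, and the mean in mutants was 0.470 times that in wildtypes. The difference was -1.0 ± 0.14 (log2, SE, n = 2 per group), with an unadjusted limma p of 0.00205 and a Benjamini-Hochberg adjusted p of 0.211, so it did not pass.

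In whole flies Atg1 had 18.9 and 19.1 FPKM in mutants and 19.5 and 18.6 FPKM in wildtypes, overlapping groups with a difference of -0.005 ± 0.104 (log2; limma adjusted p = 0.977). The genotype effect on Atg1 differed between the tissues, by -1.0 ± 0.15 (muscle minus whole fly, log2, limma interaction of tissue and genotype, adjusted p = 0.0264). The interaction took its spread from all 8 libraries, and the whole-fly pairs were more alike than the muscle pairs. Atg1 was the 1 member called by this interaction, against 5.83% of 9444 genes called and 4.22% called with a lower effect in muscle. The size of the Atg1 interaction stayed between -1.12 and -0.87 under all alternatives run, but its adjusted p ranged from 0.0108 to 0.132. The call ended without either muscle wildtype library (0.0686 without wildtype 1 and 0.0702 without wildtype 2), without either whole-fly mutant library (0.113 and 0.0696) and without either whole-fly wildtype library (0.122 and 0.132). In muscle alone, a limma fit that took its spread from all 8 libraries gave Atg1 the same difference with an adjusted p of 0.0138. That fit called 251 of 9444 genes in muscle, against 0 of 10079 entries with the spread of the muscle libraries.

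The genes around Atg1 had lower values in mutant muscle as well. Within 50 kb of Atg1, 18 other genes were tested in muscle, and all 18 had negative differences, with a median of -1.18 and a range of -1.48 to -0.20 (log2). Limma and limma-voom called 0 of these 18 after adjustment, as of all muscle entries. An unadjusted limma p under 0.05 was found for 16, against 14% of all entries. With a spread taken from all 8 libraries 13 were called, against 251 of 9444 genes. That spread includes the whole-fly libraries, whose pairs were more alike than the muscle mutants. In whole flies 13 of 21 tested neighbours were negative, with a median of -0.11. For the other 9 members the median over neighbours in muscle lay between -0.05 and 0.17. Named here after their values were seen, CG42709, which lies within the Atg1 gene on the opposite strand and shares 0 exonic bases with it, had 3.27 and 4.01 FPKM in mutant muscle and 10.6 and 11.8 FPKM in wildtype muscle. Sf3a2, a gene of the U2 snRNP, had 6.47 and 5.85 FPKM in mutant muscle and 17.8 and 18.3 FPKM in wildtype muscle. Klc, the kinesin light chain gene, had 13.3 and 11.8 FPKM in mutant muscle and 23.6 and 23.1 FPKM in wildtype muscle.

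In muscle the median difference was nearer to 0 in genes more than 100 kb from Atg1, although single genes there had larger drops. Genes whose start lay within 100 kb of the Atg1 start had a median of -1.17 (22 genes). The median was -0.72 over 32 genes at 100 to 500 kb on the side of lower coordinates and -0.69 over 26 genes at the same distance on the other side. Among these, named after their values were seen, Pmm2 had a muscle difference of -2.41 and CG11267 of -1.86, below the lowest value within 50 kb of Atg1. At 500 to 1000 kb the median was -0.29 over 52 genes on the lower side and -0.21 over 26 genes on the higher side. At 1000 to 1500 kb the median was 0.035 over 36 genes on the lower side and -0.22 over 34 genes on the higher side. It was 0.10 over 47 genes at 1500 to 2000 kb on the lower side and -0.23 over 30 genes at that distance on the higher side. On the higher side the median thus did not move nearer to 0 beyond 500 kb. Over all 1906 tested genes of 3L the median was 0.01. In whole flies the medians of all these distance classes lay between -0.14 and 0.09. What sets the lower RNA of this stretch in muscle was not tested.

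**Figure D3:**
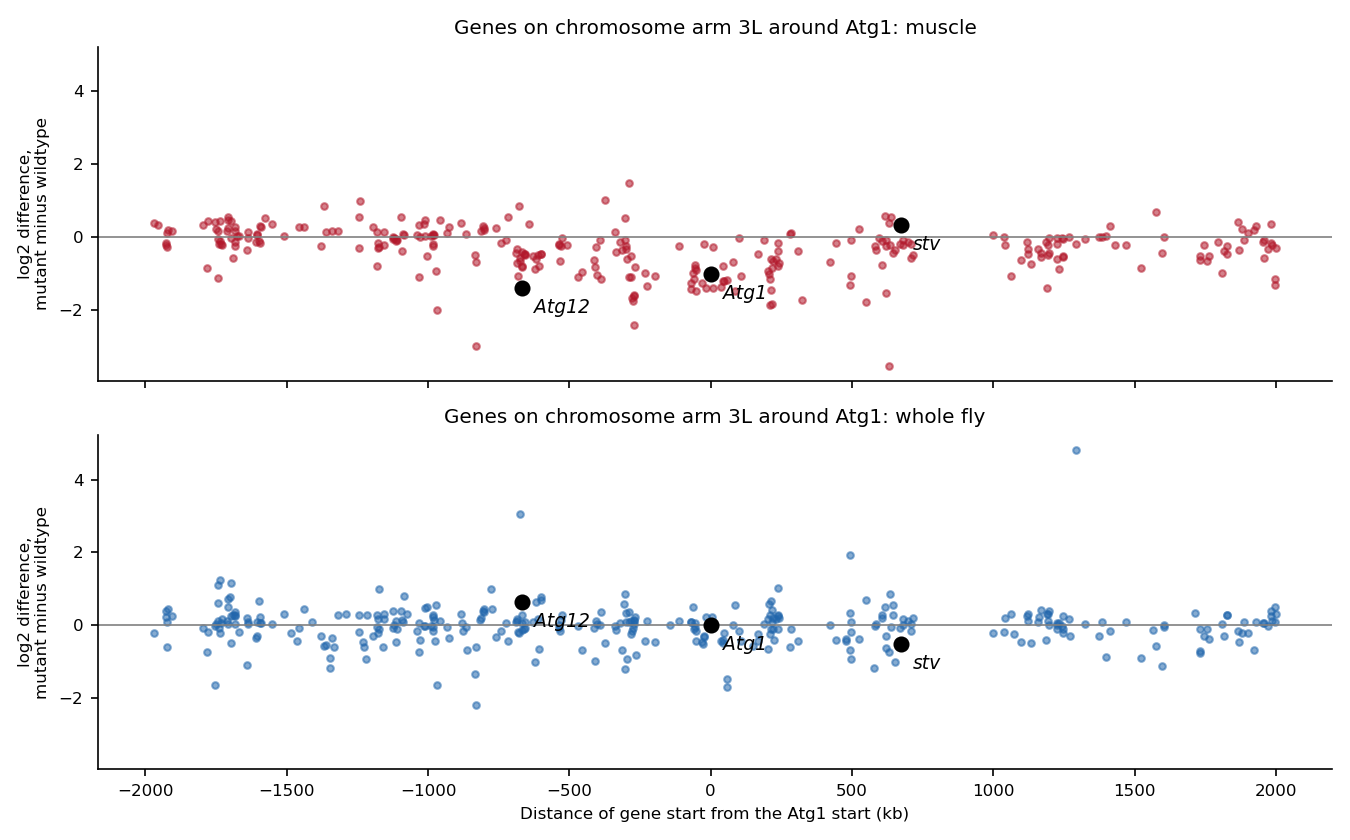
Difference between mutant and wildtype (vertical axis, log2) of each tested gene within 2000 kb of Atg1 on chromosome arm 3L, by the distance of its start from the Atg1 start (horizontal axis, kb), in muscle (top) and whole flies (bottom). Black points mark Atg1 and, from the lists of other autophagy genes, Atg12 and stv. Muscle genes within 100 kb of Atg1 lie below 0, with a median of -1.17, and whole-fly genes scatter around 0.

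Atg101 (FBgn0030960, X, 18791668 to 18793517, plus strand, 1 transcript) lies within the gene S6KL on the same strand, with 0 shared exonic bases. In whole flies Atg101 had 12.3 and 13.1 FPKM in mutants and 22.4 and 19.2 FPKM in wildtypes, with both mutants below both wildtypes. It fell by 0.67 ± 0.12 on the log2 scale (SE; limma adjusted p = 0.00845), to 0.610 times the wildtype mean. The host gene S6KL, which encodes a kinase like S6K, had 14.4 and 15.6 FPKM in whole mutant flies and 20.8 and 18.8 FPKM in whole wildtype flies, a difference of -0.38 that did not pass (limma adjusted p = 0.0549). Without whole-fly wildtype 1 the Atg101 difference was -0.56 and did not pass (limma adjusted p = 0.0581), nor did it pass with a spread taken from all 8 libraries (adjusted p = 0.099). The whole-fly genotypes also differed in summed gut and muscle markers, as given above, and the part of tissue content in this value was not tested.

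In muscle Atg101 had 14.5 and 20.3 FPKM in mutants and 16.6 and 19.7 FPKM in wildtypes. The mutants lay outside the wildtypes on both sides, and the difference was -0.07 ± 0.21 (log2; limma adjusted p = 0.927). The Atg101 genotype effect was not shown to differ between the tissues, with an interaction of 0.60 ± 0.26 (log2; limma adjusted p = 0.198). Without muscle mutant 1 that interaction was 0.83 and passed (limma adjusted p = 0.0408).

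Membrane supply and early phagophore genes came next. Atg9 is the transmembrane scramblase carried by vesicles to the forming autophagosome, and Atg18a is a WIPI protein that binds phosphatidylinositol 3-phosphate. For both genes, both mutants lay above both wildtypes in each tissue. Over all entries this held for 23.6% in muscle and 34.5% in whole flies. The share of genes with this order in both tissues was not counted. Atg9 (FBgn0034110, 2R, 16294400 to 16297232) had 22.4 and 20.9 FPKM in mutant muscle, against 17.4 and 19.6 FPKM in wildtype muscle. In whole flies Atg9 had 24.0 and 24.1 FPKM in mutants, against 20.5 and 18.8 FPKM in wildtypes. Atg18a (FBgn0035850, 3L, 8186857 to 8191118, 7 transcripts) had 20.4 and 23.5 FPKM in mutant muscle, against 18.7 and 18.5 FPKM in wildtype muscle.

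In whole flies Atg18a had 26.0 and 25.3 FPKM in mutants, against 20.5 and 20.9 FPKM in wildtypes. The differences of Atg9 and Atg18a were alike in size across tissues, at 0.22 ± 0.12 for both in muscle and at 0.28 ± 0.11 and 0.29 ± 0.10 in whole flies (log2, SE, n = 2 per group). None passed, with limma adjusted p-values of 0.495 and 0.491 in muscle and of 0.106 and 0.0813 in whole flies, for Atg9 and Atg18a in that order. Atg18a lies on the same arm as Atg1 but outside the low stretch, and its 13 tested muscle neighbours had a median of -0.04.

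None of the 3 conjugation genes among the members, Atg5, Atg7 and Atg16, passed in either tissue. Atg7 is the E1-like enzyme that activates Atg8 and Atg12, Atg5 is joined to Atg12, and Atg16 holds that conjugate at the membrane. Atg5 (FBgn0029943, X, 7314622 to 7323770) had 5.47 and 5.91 FPKM in mutant muscle and 6.47 and 6.01 FPKM in wildtype muscle, and 10.2 and 10.8 FPKM in whole mutant flies and 10.9 and 10.7 FPKM in whole wildtype flies. Its muscle mutants lay just below the wildtypes and its whole-fly groups overlapped. Atg7 (FBgn0034366, 2R, 18620466 to 18625044) had 2.70 and 2.29 FPKM in mutant muscle and 2.81 and 2.15 FPKM in wildtype muscle, and 7.64 and 7.33 FPKM in whole mutant flies and 7.04 and 6.86 FPKM in whole wildtype flies.

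The Atg7 muscle groups overlapped, and its whole-fly mutants lay just above the wildtypes. Atg16 (FBgn0039705, 3R, 29827281 to 29835101, 4 transcripts) had 6.78 and 6.05 FPKM in mutant muscle and 5.57 and 6.32 FPKM in wildtype muscle, and 13.1 and 12.2 FPKM in whole mutant flies and 14.7 and 13.8 FPKM in whole wildtype flies. Atg16 overlapped in muscle and was lower in both whole-fly mutants. The differences of these 3 genes lay between -0.16 and 0.10 (log2) over both tissues, with standard errors of 0.11 to 0.20 and limma adjusted p-values of 0.344 to 0.99.

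Atg8 proteins coat the autophagosome membrane. Atg8a, the widely expressed gene of the pair (FBgn0052672, X, 10764878 to 10768338, 3 transcripts), had 332 and 322 FPKM in mutant muscle and 292 and 291 FPKM in wildtype muscle. Both mutants were above both wildtypes in muscle, by 0.16 ± 0.11 (log2), which did not pass (limma adjusted p = 0.544). In whole flies Atg8a had 198 and 212 FPKM in mutants and 204 and 178 FPKM in wildtypes, overlapping groups with a difference of 0.10 ± 0.11 (limma adjusted p = 0.534). Among 11641 genes, those whose log2(FPKM + 1) followed Atg8a most closely over the 8 libraries were DIP-delta (Pearson r = 0.9905), plx (0.9902) and CG33109 (0.9887). All 3 were higher in each muscle library than in any whole-fly library. DIP-delta was near the filter of 1 FPKM, at 1.46 to 2.03 FPKM in muscle and 0.43 to 0.81 FPKM in whole flies. These correlations have 8 points that share tissue and library, and carry no test.

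Atg8b (FBgn0038539, 3R, 17724410 to 17725063), a short gene known in flies for its expression in the male germline, varied within groups. It had 11.6 and 0 FPKM in mutant muscle, from 154 and 0 reads, and 3.58 and 1.04 FPKM in wildtype muscle, from 50 and 14 reads. The mutants lay on both sides of the wildtypes, and the 0 reads of mutant 2 allow a level of up to 0.251 FPKM at 3 reads, counting error only. The difference was 0.22 ± 1.39 (log2; limma adjusted p = 0.966). It was -1.61 without muscle mutant 1, 2.05 without muscle mutant 2, -0.36 without muscle wildtype 2 and -0.92 with a pseudocount of 0.1, so its direction rested on single libraries.

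Testis markers moved with Atg8b. Summed over 18 of them, mutant muscle had 601 and 3.44 FPKM and wildtype muscle 196 and 63.8 FPKM, and in muscle mutant 2 all 18 were under 1 FPKM and 7 were at 0. Per 1000 FPKM of these markers, Atg8b stood at 19.4 FPKM in muscle mutant 1 and at 18.2 and 16.3 FPKM in wildtype muscle. The 0 reads of muscle mutant 2 allow up to 73.1 FPKM on this scale, so no value can be set beside the others. In whole mutant flies it stood at 26.2 and 22.4 FPKM and in whole wildtype flies at 19.6 and 19.8 FPKM on the same scale. The order of the 4 muscle libraries was the same for Atg8b and for the marker sum. The part of germline RNA in the Atg8b values of muscle was not tested.

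In whole flies Atg8b had 20.0 and 16.8 FPKM in mutants and 19.9 and 22.4 FPKM in wildtypes, overlapping groups with a difference of -0.19 ± 0.13 (log2; limma adjusted p = 0.304). The testis markers summed to 761 and 752 FPKM in whole mutant flies and to 1014 and 1132 FPKM in whole wildtype flies, and their part in this difference was not tested. The Atg8b interaction was 0.41 ± 1.58 (log2; limma adjusted p = 0.893), so a difference between the tissues was not shown. Its size ranged from -1.42 to 2.24 over the alternatives run. The genes most like Atg8b over the 8 libraries were CatB (r = 0.9991), CG32240 (0.9988) and Hsp60D (0.9987), of 11641 genes. CG32240 and Hsp60D, like Atg8b, were listed at 0 in muscle mutant 2, where CatB had 0.81 FPKM. The closeness rests on the same swing between libraries and is given without a test.

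**Figure D4:**
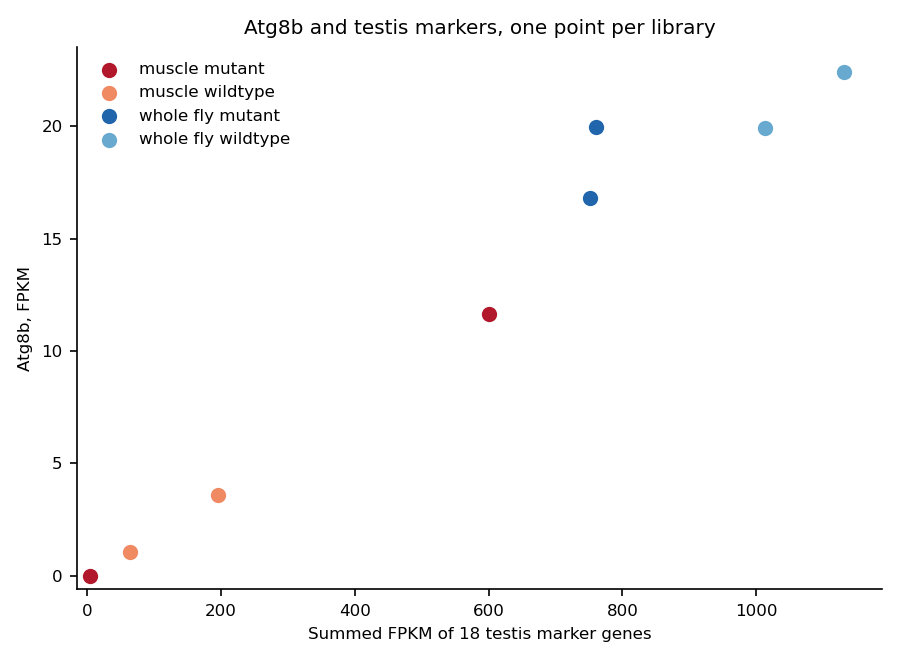
FPKM of Atg8b (vertical axis) against the summed FPKM of 18 testis markers (horizontal axis), with 1 point for each of the 8 libraries, coloured by group. Muscle mutant 2 sits at 0 and 3.44 FPKM and muscle mutant 1 at 11.6 and 601 FPKM, on either side of the wildtype muscle libraries, and the whole-fly libraries lie highest.

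The cargo receptor ref(2)P (FBgn0003231, 2L, 19542468 to 19545548, plus strand) was lower in whole mutant flies. It had 143 and 144 FPKM in whole mutant flies and 200.2 and 184 FPKM in whole wildtype flies, with both mutants below both wildtypes. It fell by 0.42 ± 0.10 on the log2 scale (SE; limma adjusted p = 0.025), to 0.748 times the wildtype mean. The call ended without whole-fly wildtype 1 (-0.35, limma adjusted p = 0.262), without whole-fly wildtype 2 (-0.48, 0.103) and with a spread taken from all 8 libraries (0.0816). At its end the gene shares 173 exonic bases, 7.2% of its own, with CG10337 on the opposite strand. Whether counting used strand is not stated, so reads there cannot be assigned to either gene. CG10337 was far lower, with 7.87 and 6.07 FPKM in whole mutant flies and 8.51 and 7.62 FPKM in whole wildtype flies.

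In muscle ref(2)P had 112 and 95.3 FPKM in mutants and 108 and 112 FPKM in wildtypes, overlapping groups with a difference of -0.09 ± 0.13 (log2; limma adjusted p = 0.812). The interaction was 0.32 ± 0.15 (log2; limma adjusted p = 0.219), so a difference between the tissues was not shown. The genes most like ref(2)P over the 8 libraries were CG10650 (r = 0.9976), Dtg (0.9973) and CG14820 (0.9956), of 11641 genes. CG10650, the most abundant of the 3, had 52.8 and 52.4 FPKM in whole mutant flies and 118 and 102 FPKM in whole wildtype flies. Dtg was low, at 0.27 to 0.76 FPKM in muscle and 1.54 to 3.60 FPKM in whole flies. Gut markers were lower in whole mutant flies too, as given above, and their part in the ref(2)P value was not tested.

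Beyond the 10 members, 62 of 66 genes in 4 lists of the wider pathway could be tested. In muscle 0 of these 62 were called, against the background of 0%. In whole flies 4 were higher and 4 lower, against 9.94% of entries called higher and 10.8% called lower. Without whole-fly wildtype 1 the count of 8 became 3. The interaction called 2 of them, Atg12 and CtsL1, a share of 3.23% against the background of 5.83%.

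The first list held 18 further Atg genes and members of the Vps34 lipid kinase complex, of which 17 were tested. Its median difference was 0.07 in muscle and 0.09 in whole flies (log2). Atg12 was its 1 called gene, higher in whole mutant flies, against 9.94% of all entries called higher. Atg12 (FBgn0036255, 3L, 12136967 to 12137559) encodes the ubiquitin-like protein that is joined to Atg5. It had 14.2 and 12.3 FPKM in whole mutant flies and 7.88 and 8.34 FPKM in whole wildtype flies, and rose by 0.64 ± 0.12 (log2; limma adjusted p = 0.0119). In muscle it had the opposite order, with 8.32 and 9.58 FPKM in mutants and 24.6 and 25.7 FPKM in wildtypes, a difference of -1.40 ± 0.12 that did not pass (limma adjusted p = 0.167) but passed with a spread taken from all 8 libraries (0.00693). The groups did not overlap in either tissue.

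The genotype effect on Atg12 differed between the tissues by -2.04 ± 0.16 (log2, limma interaction, adjusted p = 0.00731). That call ended without whole-fly mutant 1 (0.0527), without whole-fly wildtype 1 (0.0632) and without whole-fly wildtype 2 (0.0582), and the whole-fly call ended without whole-fly wildtype 1 (0.60, adjusted p = 0.051). Atg12 starts 668.1 kb from the start of Atg1, within the stretch of lower muscle RNA. Within 50 kb of Atg12, 14 of 17 tested muscle genes were negative, with a median of -0.48, and the whole-fly median was 0.07. The gene shares 64 exonic bases, 13.6% of its own, with ND-SGDH on the opposite strand, a complex I gene with 430 and 476 FPKM in mutant muscle and 778 and 789 FPKM in wildtype muscle (-0.79, log2; limma adjusted p = 0.243). Without the strand of counting, reads of this abundant neighbour and of Atg12 cannot be told apart over these bases. In whole flies ND-SGDH had 234 and 239 FPKM in mutants and 197 and 192 FPKM in wildtypes, a difference of 0.28 that did not pass (limma adjusted p = 0.0787).

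Atg6, the Beclin subunit of the Vps34 complex, had the next smallest p of this list in muscle, with 12.5 and 14.2 FPKM in mutants and 9.50 and 10.2 FPKM in wildtypes (0.40 ± 0.12, log2; limma adjusted p = 0.326). Atg18b had the next smallest in whole flies, with 17.1 and 18.2 FPKM in mutants and 14.1 and 11.2 FPKM in wildtypes (0.46 ± 0.13; limma adjusted p = 0.0519). Neither passed. The partners of Atg1, Atg13 and Atg17, named after their values were seen, had muscle differences of 0.09 and 0.22 and whole-fly differences of 0.09 each.

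Of 17 regulators, the mTORC1 kinase complex, AMPK and the transcription factors they act on, 16 were tested and 0 were called in either tissue. Over all entries, 0% were called in muscle and 20.8% in whole flies. REPTOR, a transcription factor held back by mTORC1, had 9.74 and 12.4 FPKM in mutant muscle and 6.86 and 7.44 FPKM in wildtype muscle (0.56 ± 0.16, log2; limma adjusted p = 0.32). Its partner REPTOR-BP had 41.6 and 38.9 FPKM in mutant muscle and 54.8 and 50.8 FPKM in wildtype muscle (-0.38 ± 0.11; limma adjusted p = 0.32). The groups of both genes did not overlap, and their differences had opposite signs. In whole flies Thor, the translation repressor 4E-BP, had 208 and 239 FPKM in mutants and 306 and 270 FPKM in wildtypes (-0.36 ± 0.12; limma adjusted p = 0.07), and Lst8, an mTOR complex subunit, had a difference of 0.29 ± 0.12 (limma adjusted p = 0.116).

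Of 19 genes of autophagosome fusion and the lysosome, 18 were tested, and 3 were higher and 2 lower in whole mutant flies. Over all whole-fly entries tested, 9.94% were called higher and 10.8% lower. CtsL1, a lysosomal protease of the cathepsin L type, had 582 and 490 FPKM in whole mutant flies and 302 and 279 FPKM in whole wildtype flies. It rose by 0.88 ± 0.12 (log2; limma adjusted p = 0.00294), a call kept under every alternative run. In muscle CtsL1 had 160 and 134 FPKM in mutants and 175 and 192 FPKM in wildtypes (-0.32 ± 0.14; limma adjusted p = 0.43). The tissues differed by -1.20 ± 0.19 (limma interaction, adjusted p = 0.0287). This interaction no longer passed with quantile scaling (-0.77, adjusted p = 0.0788), nor without muscle wildtype 1 (0.0645) or 2 (0.0726), whole-fly mutant 1 (0.113) or 2 (0.0519), or whole-fly wildtype 1 (0.122) or 2 (0.139).

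The lysosomal transporter gene spin had 34.5 and 35.5 FPKM in whole mutant flies and 52.6 and 52.3 FPKM in whole wildtype flies. It fell by 0.57 ± 0.10 on the log2 scale (limma adjusted p = 0.00644), but did not pass without whole-fly wildtype 1 (0.0527) or with a spread taken from all 8 libraries (0.0865). The other calls of this list were LManII, a lysosomal alpha-mannosidase, at -0.58 (limma adjusted p = 0.0129), and the fusion SNARE genes Snap29 at 0.53 (0.0233) and Syx17 at 0.46 (0.0473), named in whole flies after their values were seen. None of these 3 passed without whole-fly wildtype 1, with adjusted p-values of 0.0947 for LManII, 0.132 for Snap29 and 0.26 for Syx17. Snap29 and Syx17 also lost their calls without whole-fly mutant 1 (0.0715 and 0.158), and Syx17 without whole-fly wildtype 2 (0.0612). With a spread taken from all 8 libraries the adjusted p was 0.178 for Snap29 and 0.108 for Syx17. Without the filter it was 0.051 for Snap29 and 0.089 for Syx17, and Syx17 also missed the threshold with a pseudocount of 0.1 (0.0503), quantile scaling (0.0524) and median-of-ratios scaling (0.0517). In muscle LManII had 26.1 and 24.0 FPKM in mutants and 38.1 and 36.1 FPKM in wildtypes (-0.55 ± 0.11; limma adjusted p = 0.284), and the glucocerebrosidase gene Gba1b a difference of -0.74 ± 0.22 (limma adjusted p = 0.321).

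Of 12 genes of mitophagy and chaperone-assisted autophagy, 11 were tested, and 2 were lower in whole mutant flies, against 10.8% of all entries. Keap1, the ubiquitin ligase adaptor that restrains the stress factor cnc, had 6.25 and 7.75 FPKM in whole mutant flies and 15.6 and 15.4 FPKM in whole wildtype flies. It fell by 1.05 ± 0.13 on the log2 scale (limma adjusted p = 0.00191), and did not pass with a spread taken from all 8 libraries (0.0913). The gene stv, the BAG co-chaperone Starvin of muscle, had 19.2 and 21.6 FPKM in whole mutant flies and 31.4 and 28.2 FPKM in whole wildtype flies, and fell by 0.52 ± 0.12 (limma adjusted p = 0.0188). The stv call ended without whole-fly mutant 1 (0.0518), without whole-fly wildtype 1 (0.136) and with a spread taken from all 8 libraries (0.128). In muscle stv had 72.6 and 91.8 FPKM in mutants and 58.1 and 71.9 FPKM in wildtypes, a difference of 0.33 that did not pass (limma adjusted p = 0.505). Hsc70-4, the constitutive chaperone, had 314 and 293 FPKM in mutant muscle and 466 and 432 FPKM in wildtype muscle (-0.56 ± 0.12; limma adjusted p = 0.284, and 0.0413 with a spread taken from all 8 libraries), and cnc a difference of 0.29 ± 0.13 (limma adjusted p = 0.424).

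**Figure D5:**
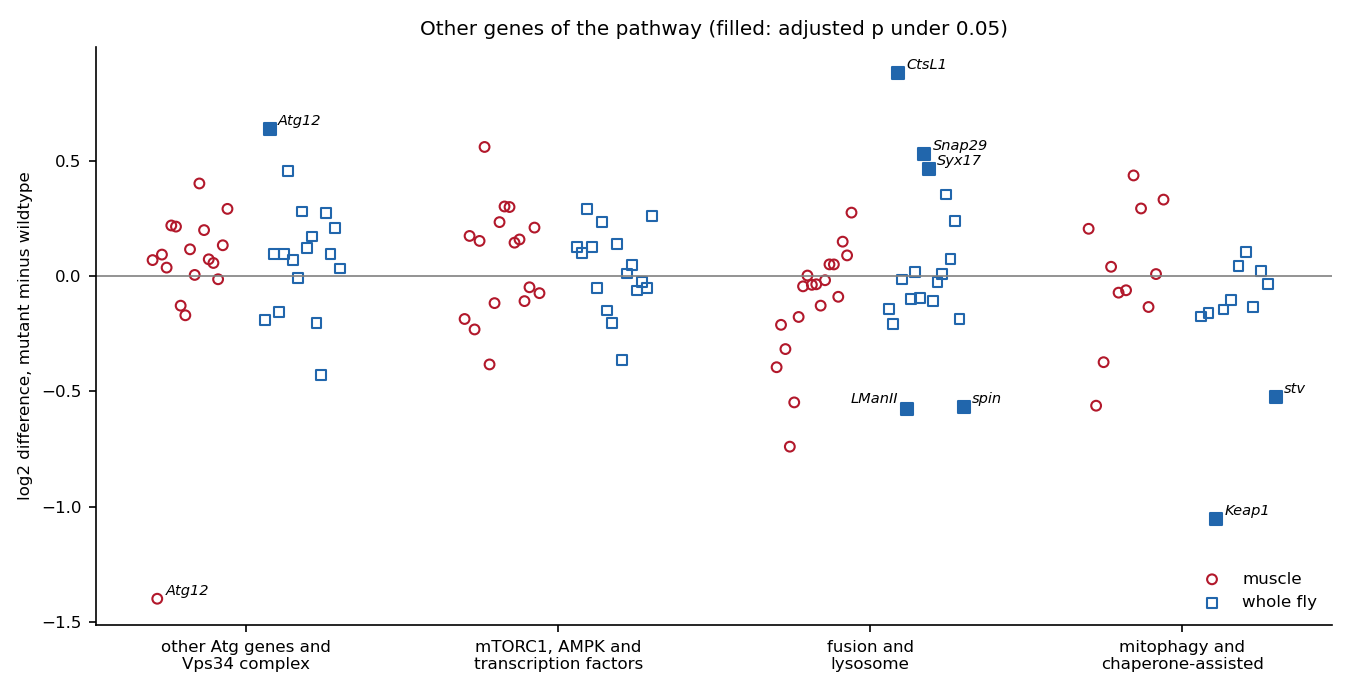
Difference between mutant and wildtype (vertical axis, log2) of the 62 tested genes in 4 lists of the wider pathway (horizontal axis), in muscle (circles) and whole flies (squares), with 1 point per gene. Filled squares are the 8 genes with a limma adjusted p under 0.05 in whole flies, 4 above and 4 below 0. Atg12 is above 0 in whole flies and lowest of all in muscle, at -1.40.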

How the data were processed

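RNA-seq values of 8 libraries were used. The authors deposited FPKM per gene, 1 table for muscle and 1 for whole flies, scaled separately; the whole-fly columns name genotype and repeat only and were assigned to whole flies because every muscle sample has its column in the other table. The aligner, counting tool and use of strand are not stated. Coordinates are those of the deposited tables and are 1-based. Multiplied by gene length, 100% of FPKM values were whole steps within a library (tolerance 0.1 reads), which gave the reads quoted. The library totals behind the FPKM were 0.884 to 1.089 times these reads, so the values carry a scaling per library.

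Each tissue was tested alone with limma 3.58.1 (R 4.3.3, eBayes with trend) on log2(FPKM + 1), for entries that reached 1 FPKM in 2 or more of its 4 libraries, with Benjamini-Hochberg adjustment at 0.05 over all of them. This scale understates changes of weakly expressed genes. The tissue difference was the interaction of a limma fit over 8 libraries, for genes that passed in both tissues. The script was tested on simulated data. Gene overlaps were read from Ensembl release 115. Alternatives were another pseudocount (0.1), no filter, a minimum FPKM of 5, quantile and median-of-ratios scaling, protein-coding entries only, removal of a gene length trend, limma-voom on the recovered reads, a spread shared over 8 libraries, a block for the repeat number and leaving out each library.

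The members and all lists were chosen with earlier results of these data known. Named genes are the members, the 2 genes with the smallest p per list and tissue, and the 3 genes most like Atg8a, Atg8b and ref(2)P. Vmp1, CtsD and Fundc1 were not matched by name and Sesn was under the filter.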

Additional observations from a re-analysis of the deposited data

Results flagged for a closer look

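The genotype effect differed between muscle and whole flies for 3 of 72 autophagy genes, the 10 members and 62 others, by the interaction term of the limma fit over all 8 libraries. This is 4.17%, against 5.83% of 9444 genes called, a share near this background. The fit used the same spread for both tissues, although whole-fly pairs were more alike than muscle pairs. The difference, muscle minus whole fly on the log2 scale, was -1.0 for Atg1, -2.04 for Atg12 and -1.20 for CtsL1, with adjusted p-values of 0.0264, 0.00731 and 0.0287 in that order. Each call ended when any of 3 whole-fly libraries, mutant 1, wildtype 1 or wildtype 2, was left out, and those of Atg1 and CtsL1 also without whole-fly mutant 2 or either muscle wildtype. For Atg1 both mutants lay below both wildtypes in muscle and the whole-fly groups overlapped. For Atg12 both mutants lay below both wildtypes in muscle and above them in whole flies, and the same held for CtsL1. Atg12 shares 13.6% of its exonic bases with the abundant ND-SGDH, and whether counting used strand is not stated. The differences of ND-SGDH were -0.79 in muscle and 0.28 in whole flies, and the part of its reads in the Atg12 values was not tested. Atg1 and Atg12 start 668.1 kb apart on 3L in the stretch where muscle values of most genes were lower in mutants. Median differences within 50 kb in muscle were -1.18 for Atg1 and -0.48 for Atg12, and in whole flies -0.11 and 0.07.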

How the results depend on the processing

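Over the alternatives run, 398 of 436 values of the members kept direction and side of the threshold, 12 no longer passed, 3 newly passed and 23 changed sign, all 23 between values that did not pass. For 22 values of other autophagy genes, 270 of 312 stayed, 32 no longer passed, 10 newly passed and 0 changed sign. In muscle the number of entries called was 2 with a minimum FPKM of 5, 2 with quantile scaling, 2 with protein-coding entries only and 251 with a spread shared over 8 libraries, and 0 to 12 with a library left out. In whole flies it was 544 with the shared spread and 1409 to 3213 with a library left out, against 2372. For the interaction it was 232 with the length trend removed and 11 to 1686 with a library left out, against 551. With the shared spread, members called were 1 in muscle (Atg1) and 0 in whole flies, and other autophagy genes called were 2 in muscle (Atg12 and Hsc70-4) and 3 in whole flies. With a library left out, members called ranged from 0 to 2 in whole flies and from 0 to 2 for the interaction, and other autophagy genes called from 3 to 10 in whole flies and from 0 to 7 for the interaction. Quantile scaling left 1 other autophagy gene for the interaction. Causes of these changes were not tested.

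With a library left out, signs changed in muscle for Atg101 (range -0.30 to 0.16), Atg7 (-0.13 to 0.15), Atg8b (-1.61 to 2.05) and ref(2)P (-0.21 to 0.02), in whole flies for Atg1 (-0.04 to 0.03) and Atg5 (-0.07 to 0.00), and for the interaction for Atg9 (-0.14 to 0.02), Atg18a (-0.17 to 0.03), Atg7 (-0.22 to 0.05), Atg8a (-0.03 to 0.16) and Atg8b (-1.42 to 2.24). Signs also changed in muscle for Atg7 (-0.15) and ref(2)P (0.13) with quantile scaling, for Atg8b with a pseudocount of 0.1 (-0.92) and limma-voom (-1.35), and for the interaction for Atg8b with a pseudocount of 0.1 (-0.72) and Atg5 with the length trend removed (0.03).

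Libraries with the same repeat number share only that number. The correlation of their deviations from the group means was 0.389 in muscle and -0.149 in whole flies, with 2 pairs each. With the repeat number as a block, 0 entries were called in muscle, 2807 in whole flies and 16 for the interaction, which then held 0 members and 0 other autophagy genes. The interaction's adjusted p under this block was 0.11 for Atg1, 0.063 for Atg12 and 0.111 for CtsL1. Without muscle mutant 1 or muscle wildtype 2, the muscle neighbours of Atg1 kept medians of -1.20 and -1.11. At 0 reads, Atg8b in muscle mutant 2 could have stood at up to 0.251 FPKM, and every test has only 2 libraries per group.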
